A study of Homo sapiens with 8 samples.

Results

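Antisense RNAs are transcripts read from the strand opposite to a neighbouring gene, and the RNAs described here carry the name of that gene followed by the suffix -AS1. They were chosen by name and by detection. A gene was kept when its symbol ended in -AS1 and when it had a probe well above background on all 8 arrays of the series, and of several such probes the brightest over the arrays was read. Of 952 -AS1 genes with a probe on the array, 403 met this rule, among 14492 genes detected in this way and 22428 genes with any probe. The gene whose symbol precedes the suffix, called the partner gene below, had a probe for 393 of them. The measured values that chose these RNAs were the background flags and the mean brightness, so that the levels described first were part of the choice. The differences between drugs and between cell lines were not used to choose. The rule still limits them, since it leaves out RNAs at background in a group.

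OVSAHO and KURAMOCHI are established human ovarian cancer cell lines. Their total RNA was labelled with Cy3 and hybridized to single-color oligonucleotide arrays after culture with simvastatin, a statin that blocks the enzyme making mevalonate, or with L778123, an inhibitor of the enzymes that attach farnesyl and geranylgeranyl groups to proteins. The 4 groups were OVSAHO with Simvastatin, OVSAHO with L778123, KURAMOCHI with Simvastatin and KURAMOCHI with L778123, each with 2 arrays, and the question behind them was whether a statin acts through more than the loss of protein prenylation. Untreated cells were not part of the arrays used, so that each difference sets simvastatin against L778123 without telling which of the drugs moved the RNA, and doses and culture times of these arrays are not given in the sources used here. The labels do not say that the 2 arrays of a group came from separate cultures, and p-values then measure only the spread between these arrays. A single slide carried all 8 arrays, each cell line had a row of positions to itself, and the effect of position cannot be told apart from that of the group. Across arrays, the 75th percentile ranged from 324 to 437 intensity units, between 51.8% and 57.5% of 58162 probes were well above background, and 0 probes were saturated. All 12 markers of serous ovarian carcinoma that were examined, PAX8 and WT1 among them, were well above background on all arrays of both lines. Of the markers of other cell types, PECAM1 and DCN were well above background on 0 arrays, COL1A1 and COL3A1 on the 4 KURAMOCHI arrays and 0 OVSAHO arrays, and PTPRC, CD14, CDH5 and VWF on all 8.

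An antisense RNA can begin close to the start of its partner and run away from it, sharing the open chromatin of 1 promoter region, or it can begin inside the partner and run back across its start. Some antisense RNAs are known to act on the gene beside them, by recruiting or keeping off chromatin modifiers or by pairing with its mRNA, and many have no known function. Array probes are complementary to 1 strand, so the antisense RNA and its partner are read by separate probes. In the RefSeq tables of GRCh38.p14, 268 of the 393 pairs had an entry for both genes. In 217 of these the genes lay on opposite strands with overlapping spans, in 47 they pointed away from each other without overlap, in 3 they pointed towards each other without overlap, and 1 pair lay on the same strand. The nearest annotated starts were within 1000 bases in 134 pairs and farther apart in the other 134.

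The promoter regions below, from RefSeq on GRCh38.p14, run from 250 bases before to 50 bases after a transcript start, 5′ to 3′ on the strand of the gene. They are shown because in 4 pairs both genes differed between the drugs in OVSAHO cells and had starts within 1000 bases on opposite strands, while SAPCD1-AS1 had the largest difference between the drugs of all 403 antisense RNAs. Capitals mark matches on either strand to the GC box GGGCGG, the TATA box TATAAA, the AP-1 site TGANTCA and the TEAD site GGAATG.
TM4SF1-AS1, chr3:149377528-149377827, plus strand: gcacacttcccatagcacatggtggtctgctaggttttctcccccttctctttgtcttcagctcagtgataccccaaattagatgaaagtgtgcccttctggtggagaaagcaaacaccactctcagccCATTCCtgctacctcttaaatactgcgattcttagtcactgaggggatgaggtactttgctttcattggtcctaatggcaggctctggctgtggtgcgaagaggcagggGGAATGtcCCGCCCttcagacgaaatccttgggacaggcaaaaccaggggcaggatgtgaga
TM4SF1, chr3:149377600-149377899, minus strand: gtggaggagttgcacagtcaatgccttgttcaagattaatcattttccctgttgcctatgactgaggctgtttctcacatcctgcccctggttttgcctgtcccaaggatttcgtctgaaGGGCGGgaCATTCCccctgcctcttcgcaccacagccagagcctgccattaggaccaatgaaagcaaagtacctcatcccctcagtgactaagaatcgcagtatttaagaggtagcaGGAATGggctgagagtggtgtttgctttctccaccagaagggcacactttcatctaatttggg
TGFB2-AS1, chr1:218345629-218345928, minus strand: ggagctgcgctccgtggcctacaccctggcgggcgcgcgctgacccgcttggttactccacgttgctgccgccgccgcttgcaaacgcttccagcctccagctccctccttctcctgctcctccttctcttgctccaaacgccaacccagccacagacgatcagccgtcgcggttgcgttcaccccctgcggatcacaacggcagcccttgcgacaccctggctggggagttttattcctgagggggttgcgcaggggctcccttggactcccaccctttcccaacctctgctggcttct
TGFB2, chr1:218345086-218345385, plus strand: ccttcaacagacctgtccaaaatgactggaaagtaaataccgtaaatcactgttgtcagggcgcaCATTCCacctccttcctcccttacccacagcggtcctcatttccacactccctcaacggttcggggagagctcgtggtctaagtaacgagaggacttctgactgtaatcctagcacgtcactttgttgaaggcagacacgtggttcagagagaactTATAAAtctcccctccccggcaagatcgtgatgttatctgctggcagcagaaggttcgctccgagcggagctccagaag
AQP5-AS1, chr12:49962734-49963033, minus strand: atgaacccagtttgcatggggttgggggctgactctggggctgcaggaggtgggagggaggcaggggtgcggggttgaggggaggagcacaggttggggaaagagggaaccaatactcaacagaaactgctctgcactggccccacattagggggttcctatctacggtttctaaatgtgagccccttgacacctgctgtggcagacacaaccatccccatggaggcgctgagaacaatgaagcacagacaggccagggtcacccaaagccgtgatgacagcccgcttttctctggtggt
AQP5, chr12:49961622-49961921, plus strand: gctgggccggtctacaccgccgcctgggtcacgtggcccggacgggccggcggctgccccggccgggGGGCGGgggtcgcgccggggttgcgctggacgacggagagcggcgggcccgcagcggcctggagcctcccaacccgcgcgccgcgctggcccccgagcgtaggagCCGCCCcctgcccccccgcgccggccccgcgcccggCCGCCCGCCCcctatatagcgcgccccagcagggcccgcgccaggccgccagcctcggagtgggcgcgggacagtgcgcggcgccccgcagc
RARA-AS1, chr17:40343087-40343386, minus strand: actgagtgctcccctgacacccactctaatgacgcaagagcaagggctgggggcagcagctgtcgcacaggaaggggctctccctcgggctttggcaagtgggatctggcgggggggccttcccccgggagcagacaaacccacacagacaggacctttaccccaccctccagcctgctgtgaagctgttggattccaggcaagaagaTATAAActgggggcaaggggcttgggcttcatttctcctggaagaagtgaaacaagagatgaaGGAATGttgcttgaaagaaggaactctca
RARA, chr17:40341916-40342215, plus strand: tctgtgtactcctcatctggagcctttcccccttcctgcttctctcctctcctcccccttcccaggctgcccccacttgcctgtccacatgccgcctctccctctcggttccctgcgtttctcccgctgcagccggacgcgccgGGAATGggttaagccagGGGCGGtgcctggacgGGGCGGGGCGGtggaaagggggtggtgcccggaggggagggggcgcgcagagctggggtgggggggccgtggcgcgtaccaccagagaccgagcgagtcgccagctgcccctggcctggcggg
SAPCD1-AS1, chr6:31765539-31765838, minus strand: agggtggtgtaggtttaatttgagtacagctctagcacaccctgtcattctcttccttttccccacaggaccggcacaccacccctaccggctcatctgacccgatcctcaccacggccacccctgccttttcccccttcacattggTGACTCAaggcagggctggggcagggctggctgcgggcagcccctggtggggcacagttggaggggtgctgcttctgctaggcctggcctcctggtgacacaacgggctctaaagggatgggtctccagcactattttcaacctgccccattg
The starts of TM4SF1-AS1 and TM4SF1 were 129 bases apart with the genes pointing away from each other, so that both windows hold the same GC box and the same pair of TEAD matches. The starts of TGFB2-AS1, AQP5-AS1 and RARA-AS1 lay 342, 911 and 970 bases downstream of a start of the partner and on the opposite strand. For these 3 pairs the windows do not overlap, and their motifs differed. The AQP5 window held 4 GC boxes in 84% G and C, against 0 in 58% for AQP5-AS1. The RARA window held 3 GC boxes and 1 TEAD match, and that of RARA-AS1 held 0 GC boxes, 1 TATA box and 1 TEAD match. The TGFB2 window held 1 TATA box and 1 TEAD match, and none of the 4 motifs was found in that of TGFB2-AS1. The SAPCD1-AS1 window held 1 AP-1 match. Over all 35116 promoter windows of the table, 45% held the GC box, 7.71% the AP-1 site and 14% the TEAD site, and 4049 windows held the TATA box. Over the 361 windows of the 309 antisense RNAs with an entry, 53.7% held the GC box, 6.93% the AP-1 site and 14.7% the TEAD site, and 29 windows held the TATA box. A match of letters is a description of the window and not a site in use.

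The antisense RNAs were dim. Levels are given as log2 intensity relative to the 75th percentile of the array, and their mean over the 8 arrays ranged from -4.11 to 8.12 with a median of -1.13, against a median of 1.47 for all genes detected on all arrays and 0.99 for the partner genes. The median standard deviation between replicate arrays was 0.102 for the antisense RNAs and 0.0679 for the genes detected on all arrays. The probe of TTLL1-AS1 was the brightest, with a mean of 8.12. Those just inside the detection rule were KIF1C-AS1, PAX8-AS1 and PCYT1B-AS1, with means of -4.11, -4.04 and -4.02. Just outside, on 7 arrays, were GLIS3-AS1, TSKU-AS1 and CPB2-AS1, whose means of -1.52, -2.48 and -2.79 rest on lower values on the OVSAHO than on the KURAMOCHI arrays. Of the 952 -AS1 genes, 335 were well above background on 0 arrays and 214 on 1 to 7 arrays, so that an RNA switched off in 1 group was left out by the rule.

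The first comparison set simvastatin against L778123 in OVSAHO cells. RARA-AS1, SAPCD1-AS1 and UNC5B-AS1 were higher with simvastatin by 4.46-fold to 6.84-fold, and EMC3-AS1, AQP5-AS1 and GNAS-AS1 were lower by 2.88-fold to 3.18-fold. In all, 21 of the 403 antisense RNAs were called, which means a difference of at least 2-fold together with an adjusted p under 0.05 (limma, p-values adjusted by Benjamini-Hochberg across the 33753 probes tested). They were 5.21% of the antisense RNAs, against 9.61% of all genes detected on all arrays and 11% of all probes tested. With simvastatin 10 were higher and 11 lower, and the corresponding shares were 4.71% and 4.9% of the genes detected on all arrays, and 4.78% and 6.19% of the probes tested. At an adjusted p under 0.05 with any fold, 188 antisense RNAs passed, 46.7% against 57.1% of the genes detected on all arrays. The part of the lower brightness and the larger spread of antisense probes in these smaller shares was not tested. The median log2 difference was 0.02 over the antisense RNAs and 0.00457 over the genes detected on all arrays. Of the 345 partner genes tested, 48 were called, 25 higher and 23 lower, which is 13.9%.

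In 4 pairs both the antisense RNA and its partner were called in OVSAHO cells, each time in the same direction. In 17 pairs the antisense RNA was called and its partner was not, while 13.9% of all tested partner genes were called. The 17 include TEX26 and CA3, whose probes were not tested and could not be called. Whether called genes fall together in pairs more often than this share gives was not tested. The standard errors below come from 1 fit of all 4 groups, so that each holds the spread of both lines. AQP5-AS1 had levels of 2.48 and 2.45 with simvastatin and 4.0 and 4.03 with L778123, a log2 difference of -1.55 (standard error 0.0536, adjusted p = 3.16e-05). AQP5, a water channel of secretory epithelia, had 2.84 and 2.91 against 4.47 and 4.59, a log2 difference of -1.65 (standard error 0.0713). Both genes were thus lower on each simvastatin array than on each L778123 array, and by like amounts, with a gap of 0.11 between the 2 log2 differences (antisense minus partner, standard error 0.0663). TGFB2-AS1 had levels of -0.13 and -0.03 with simvastatin and -1.51 and -1.41 with L778123, a log2 difference of 1.38 (standard error 0.0931, adjusted p = 0.00019). TGFB2, a secreted growth factor of the TGF-beta family, had -1.38 and -1.39 against -3.52 and -3.29, a log2 difference of 2.02 (standard error 0.0879). The partner thus differed by more than the antisense RNA, with an antisense minus partner gap of -0.64 (standard error 0.125). TM4SF1-AS1 had levels of -1.64 and -1.66 against -2.66 and -2.69, a log2 difference of 1.02 (standard error 0.172, adjusted p = 0.005), just past the fold threshold. TM4SF1, a tetraspanin-like membrane protein that is abundant in many carcinomas, had 6.74 and 6.80 against 5.34 and 5.28, a log2 difference of 1.45 (standard error 0.0804). RARA-AS1 had levels of -1.27 and -1.23 against -3.86 and -3.71, a log2 difference of 2.53 (standard error 0.107, adjusted p = 5.18e-05). RARA, the retinoic acid receptor alpha, had 2.06 and 2.13 against 0.66 and 0.91, a log2 difference of 1.31 (standard error 0.0956). Here the antisense RNA differed by more than its partner, with a gap of 1.22 (standard error 0.0892). With the median over its probes the log2 difference of RARA was 0.99, under the fold threshold.

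**Figure D1:**
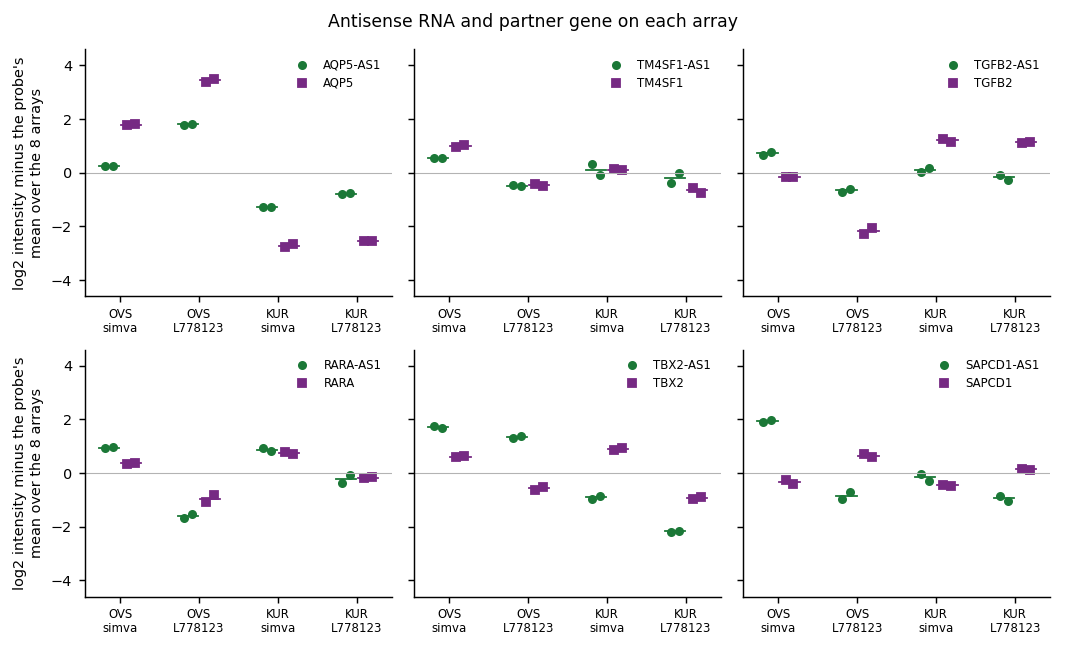
Log2 intensity of the antisense RNA (green circles) and the partner gene (purple squares) of 6 pairs on each of the 8 arrays, with short lines at the group means; each probe is set to its own mean over the 8 arrays, so that heights compare arrays and not probes. OVS is OVSAHO, KUR is KURAMOCHI and simva is simvastatin. AQP5, TM4SF1, TGFB2 and RARA move with their antisense RNA between the OVSAHO groups, TBX2 moves with its antisense RNA between the KURAMOCHI groups, and SAPCD1 lies on the other side from SAPCD1-AS1.

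The other 7 antisense RNAs that were higher with simvastatin in OVSAHO cells had partners that were not called. SAPCD1-AS1 had levels of -0.55 and -0.48 with simvastatin and -3.44 and -3.15 with L778123, a log2 difference of 2.77 (standard error 0.135, adjusted p = 7.36e-05). Its partner SAPCD1 had 0.89 and 0.75 against 1.85 and 1.76, a log2 difference of -0.98 (standard error 0.0724, adjusted p = 0.000257), the other way and just under the fold threshold. SAPCD1 passed it, at -1.05 and -1.03, without OVSAHO Simvastatin replicate 1 and without OVSAHO L778123 replicate 2. The starts of this pair were 2932 bases apart. UNC5B-AS1, among the brighter antisense RNAs, had levels of 5.88 and 6.04 against 3.80 and 3.82, a log2 difference of 2.16 (standard error 0.0757, adjusted p = 3.28e-05). Its partner UNC5B, a receptor for the guidance factor netrin, had a log2 difference of -0.30 (standard error 0.0721). OGFR-AS1 had levels of -0.48 and -0.45 against -2.15 and -2.06, a log2 difference of 1.64 (standard error 0.0787), and OGFR, the opioid growth factor receptor, one of 0.39 (standard error 0.107). These 3 antisense RNAs thus stood apart from the gene beside them. H1-10-AS1, beside a linker histone gene, differed by 1.40 (standard error 0.0556) at its brightest probe and by 0.26 at the lowest of its 3 probes, with a median of 0.30 under the fold threshold. PRKAG2-AS1, beside the gene of a regulatory subunit of AMP-activated protein kinase, differed by 1.13 (standard error 0.0741) while PRKAG2 differed by 0.08 (standard error 0.0946), although their starts were 73 bases apart. RAD21-AS1, beside a cohesin subunit gene, differed by 1.05 (standard error 0.178), and by 0.98 and 0.84 without OVSAHO Simvastatin replicate 1 and without OVSAHO L778123 replicate 1. TEX26-AS1 differed by 1.02 (standard error 0.2), and by 0.92 and 0.99 without OVSAHO Simvastatin replicate 2 and without OVSAHO L778123 replicate 2, and the probe of TEX26 was not tested. The calls of RAD21-AS1 and TEX26-AS1 thus depended on single arrays.

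Of the antisense RNAs that were lower with simvastatin in OVSAHO cells, 10 had partners that were not called lower. EMC3-AS1 had levels of -1.23 and -1.41 with simvastatin and 0.37 and 0.33 with L778123, a log2 difference of -1.67 (standard error 0.091, adjusted p = 9.84e-05), the lowest among the antisense RNAs. EMC3, a subunit of a complex that inserts proteins into the endoplasmic reticulum membrane, had 2.45 and 2.39 against 2.52 and 2.46, a log2 difference of -0.07 (standard error 0.0569). GNAS-AS1, which lies at the imprinted GNAS locus, had levels of 1.78 and 1.76 against 3.33 and 3.26, a log2 difference of -1.53 (standard error 0.0598, adjusted p = 4.26e-05). GNAS, the alpha subunit of the stimulatory G protein and one of the brightest partners, had a log2 difference of 0.02 (standard error 0.0682). In both pairs the antisense RNA lay well apart between the drugs, while the partner had nearly the same level on all 4 OVSAHO arrays. CYP1B1-AS1 had levels of -4.17 and -4.04 against -2.81 and -2.78, a log2 difference of -1.31 (standard error 0.0665). CYP1B1, a cytochrome P450 enzyme that oxidizes estrogens and polycyclic hydrocarbons, had 2.28 and 2.00 against 1.38 and 1.52, a log2 difference of 0.69 (standard error 0.11, adjusted p = 0.00398). The other probe of CYP1B1-AS1 had a log2 difference of 0.71 in OVSAHO cells, so that its 2 probes disagree in direction. ATP2A1-AS1, beside the gene of a calcium pump of muscle, differed by -1.47 (standard error 0.0951), and ATP2A1, not well above background with simvastatin in OVSAHO, was at least 1.24-fold lower there (adjusted p = 0.066 from limma). Such a bound compares the mean of the group that was detected with a value for each array of the other group. That value is the higher of the lowest detected signal on the array and the probe's own signal there. ATP2A1 passed the test, at a log2 difference of -1.59, without OVSAHO Simvastatin replicate 2.

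PDCD4-AS1, beside the gene of an inhibitor of translation that acts as a tumor suppressor, differed by -1.21 (standard error 0.113) at its brightest probe and by -0.23 at the other, and PDCD4 by -0.34 (standard error 0.0972). USP2-AS1, beside a deubiquitinase gene, differed by -1.15 (standard error 0.0793) and by -0.60 at its other probe. OPA1-AS1, beside the gene of a GTPase of mitochondrial fusion, differed by -1.02 (standard error 0.104) and OPA1 by -0.52 (standard error 0.0579). ZNF571-AS1 differed by -1.22 (standard error 0.151) and its partner, a zinc finger gene, by 0.15. CA3-AS1, beside a carbonic anhydrase gene whose own probe was not tested, differed by -1.1 (standard error 0.225). MRTFA-AS1, beside the gene of an actin-regulated coactivator of serum response factor, differed by -1.05 (standard error 0.155) and MRTFA by 0.16 (standard error 0.0716). The calls of OPA1-AS1, ZNF571-AS1, CA3-AS1 and MRTFA-AS1 depended on single arrays. OPA1-AS1 was at -0.93 without OVSAHO Simvastatin replicate 1 and at -0.96 without OVSAHO L778123 replicate 2. Without OVSAHO Simvastatin replicate 1 the log2 differences were -0.98 for ZNF571-AS1, -1.06 for CA3-AS1 with an adjusted p of 0.0502 from limma, and -0.93 for MRTFA-AS1. Without OVSAHO L778123 replicate 1 they were -0.97 for CA3-AS1 and -0.99 for MRTFA-AS1, and ZNF571-AS1 was still called. With normexp background correction, which adds an offset of 50 to the intensity and so draws the fold changes of dim probes together, 13 antisense RNAs were called in OVSAHO cells, 12 of them among the 21. The calls of TM4SF1-AS1 (0.59), RAD21-AS1 (0.54), TEX26-AS1 (0.55), CYP1B1-AS1 (-0.36), ZNF571-AS1 (-0.69), USP2-AS1 (-0.79), CA3-AS1 (-0.38), MRTFA-AS1 (-0.70) and OPA1-AS1 (-0.60) were then under the fold threshold, each at an adjusted p under 0.05 from limma. By the methods' analysis of variance with Tukey's test, TM4SF1-AS1, RAD21-AS1, TEX26-AS1 and CA3-AS1 missed the threshold, with adjusted p values of 0.0703, 0.0725, 0.105 and 0.117. With a median across the probes of each gene, H1-10-AS1, CYP1B1-AS1, PDCD4-AS1 and USP2-AS1 were under the fold threshold, at 0.30, -0.30, -0.72 and -0.87.

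**Figure D2:**
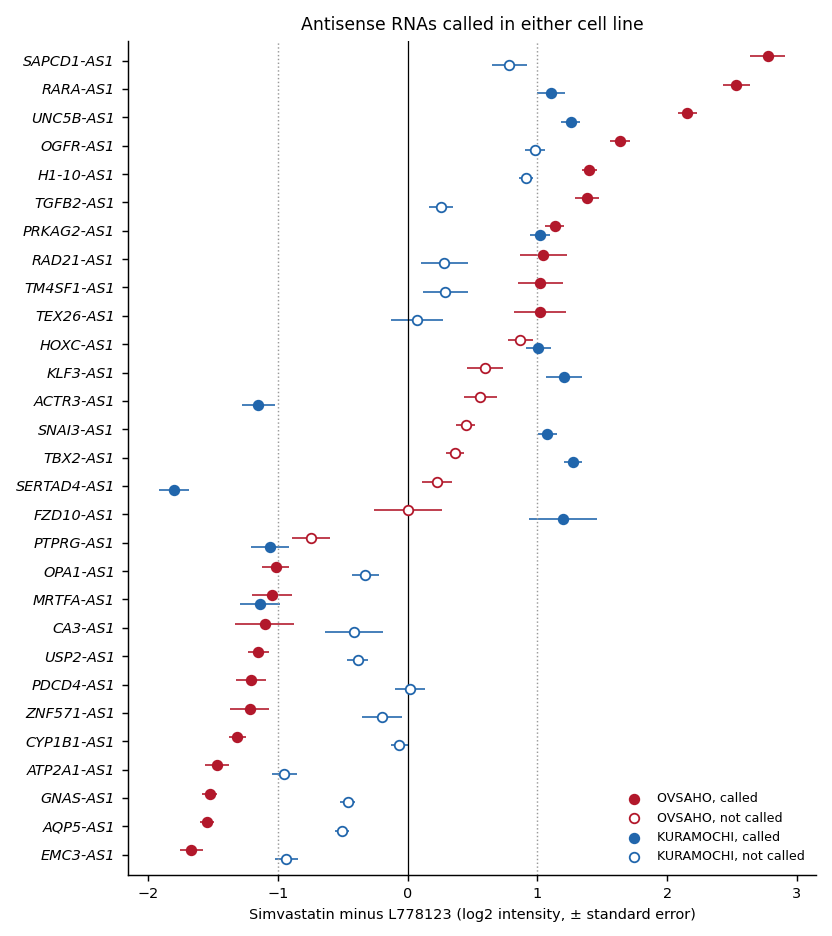
Log2 difference between simvastatin and L778123, with its standard error, for the 29 antisense RNAs called in OVSAHO (red) or KURAMOCHI cells (blue), ordered by the value in OVSAHO; filled points were called and open points were not, and dotted lines mark the 2-fold threshold. RARA-AS1, UNC5B-AS1 and PRKAG2-AS1 lie to the right in both lines and MRTFA-AS1 to the left in both, while SERTAD4-AS1 and ACTR3-AS1 lie on opposite sides of 0.

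In KURAMOCHI cells, fewer antisense RNAs differed between the drugs. TBX2-AS1, UNC5B-AS1, KLF3-AS1 and FZD10-AS1 were higher with simvastatin by 2.29-fold to 2.42-fold, and SERTAD4-AS1 was lower by 3.49-fold. In all, 12 antisense RNAs were called, 2.98% of 403, against 3.86% of all genes detected on all arrays and 5.59% of all probes tested. With simvastatin 8 were higher and 4 lower, against shares of 1.71% and 2.15% among the genes detected on all arrays and of 2.05% and 3.54% among the probes tested. The median log2 difference was 0.08 over the antisense RNAs and 0.0094 over those genes, and 238 antisense RNAs had a difference above 0 and 165 below. Of the partner genes tested, 21 were called, 12 higher and 9 lower, which is 6.09%. With only probes on all 8 arrays, 15 partner genes were called.

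Both genes were called in 3 pairs in KURAMOCHI cells, again in the same direction, while 6.09% of all tested partner genes were called. TBX2-AS1 had levels of 1.17 and 1.29 with simvastatin and -0.05 and -0.03 with L778123, a log2 difference of 1.27 (standard error 0.0689, adjusted p = 0.00029). TBX2, a T-box transcription factor, had 1.12 and 1.20 against -0.67 and -0.63, a log2 difference of 1.81 (standard error 0.0622). In OVSAHO cells TBX2 was also called higher, at 1.18, and TBX2-AS1 differed by 0.36 (standard error 0.0689). FZD10-AS1 had levels of -1.59 and -1.51 against -2.77 and -2.72, a log2 difference of 1.20 (standard error 0.262, adjusted p = 0.0202 from limma). FZD10, a receptor for Wnt ligands that was well above background on the KURAMOCHI arrays and on 0 of the OVSAHO arrays, had -1.0 and -0.94 against -2.42 and -2.60, a log2 difference of 1.54 (standard error 0.175). The call of FZD10-AS1 was lost without any 1 of the 4 KURAMOCHI arrays, although its log2 difference stayed at 1.16 to 1.24. Its standard error holds the spread of the OVSAHO arrays as well, and its KURAMOCHI replicates lay close together. With each line fitted alone, the 12 antisense RNAs called in KURAMOCHI cells, FZD10-AS1 among them, were still called. SERTAD4-AS1 had levels of -3.66 and -3.49 against -1.72 and -1.83, a log2 difference of -1.80 (standard error 0.115, adjusted p = 0.000431). The probe of SERTAD4 was well above background only on the 2 KURAMOCHI arrays with L778123, and SERTAD4 was at least 1.77-fold lower with simvastatin (adjusted p = 0.0022 from limma). SERTAD4 was thus tested only through the group in which it was higher, so that the direction of its call was set by detection. Its bound is under the fold threshold, and with normexp background correction its log2 difference was -0.39 and the call was lost.

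Of the other 9 calls in KURAMOCHI cells, 8 were in antisense RNAs whose partners were not called, and HOXC-AS1 had no partner gene. ACTR3-AS1 had levels of -2.77 and -2.48 with simvastatin and -1.50 and -1.45 with L778123, a log2 difference of -1.15 (standard error 0.127, adjusted p = 0.0022). ACTR3, a subunit of the complex that nucleates branched actin filaments, had 5.37 and 5.40 against 6.16 and 6.17, a log2 difference of -0.78 (standard error 0.0521), in the same direction and under the fold threshold. KLF3-AS1 had levels of -1.80 and -1.76 against -3.02 and -2.95, a log2 difference of 1.21 (standard error 0.139), and KLF3, a transcriptional repressor, one of 0.78 (standard error 0.0741). KLF3 was called in OVSAHO cells, at 1.47, where KLF3-AS1 differed by 0.60. UNC5B-AS1 had levels of 2.35 and 2.46 against 1.15 and 1.15, a log2 difference of 1.26 (standard error 0.0757), with 0.20 for UNC5B. RARA-AS1 differed by 1.1 (standard error 0.107) and RARA by 0.94 (standard error 0.0956). SNAI3-AS1, beside a gene of the Snail family of repressors, differed by 1.08 (standard error 0.0733) and, at the lowest of its 4 probes, by 0.45, with a median of 0.62 under the fold threshold, and SNAI3 by 0.66 (standard error 0.174). HOXC-AS1, which lies in the HOXC gene cluster and has no single partner by its name, differed by 1.01 (standard error 0.0955), PRKAG2-AS1 by 1.02 (standard error 0.0741), PTPRG-AS1, beside a receptor phosphatase gene, by -1.06 (standard error 0.145), and MRTFA-AS1 by -1.14 (standard error 0.155). Several of these calls lay close to the fold threshold and fell below it without 1 array. Without KURAMOCHI Simvastatin replicate 1 the values were 0.99 for PRKAG2-AS1 and -0.87 for PTPRG-AS1, and without KURAMOCHI Simvastatin replicate 2 HOXC-AS1 was just under the threshold and MRTFA-AS1 was at -0.93. Without KURAMOCHI L778123 replicate 1 they were 0.97 for RARA-AS1 and 0.87 for HOXC-AS1, and without KURAMOCHI L778123 replicate 2 they were 0.99 for SNAI3-AS1 and 0.95 for PRKAG2-AS1. With normexp background correction 2 antisense RNAs were called in KURAMOCHI cells, UNC5B-AS1 and TBX2-AS1, and the other 10 differed by -0.79 to 0.99 with adjusted p under 0.05 from limma. By the methods' analysis of variance with Tukey's test, FZD10-AS1, MRTFA-AS1 and PTPRG-AS1 missed the threshold, with adjusted p values of 0.197, 0.0647 and 0.0642. PRKAG2-AS1 was just under the fold threshold with quantile normalization (0.9996), in the authors' table (0.9998) and with the median over its probes (0.998).

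Of the 29 antisense RNAs called in either line, RARA-AS1, UNC5B-AS1 and PRKAG2-AS1 were called higher in both, MRTFA-AS1 was called lower in both, and 0 were called in opposite directions. These are 3 higher and 1 lower of 403, beside 121 higher and 187 lower in both lines of the 14492 genes detected on all arrays. Being called in 1 line and not in the other does not show a difference, and the drug effect was therefore compared between the lines in the same fit. The difference of the 2 effects was called for 16 antisense RNAs, 3.97%, against 5.83% of all genes detected on all arrays and 7.1% of all probes tested. The effect in OVSAHO minus that in KURAMOCHI was above 0 for 6 of them and below 0 for 10, against 3.31% and 2.52% of the genes detected on all arrays and 3.86% and 3.25% of the probes tested. For SERTAD4-AS1 this value was 2.03 (standard error 0.162, adjusted p = 0.00125), since its levels in OVSAHO cells were -1.93 and -1.65 with simvastatin and -2.05 and -1.99 with L778123. For SAPCD1-AS1, whose levels in KURAMOCHI cells were -2.49 and -2.74 with simvastatin and -3.30 and -3.49 with L778123, it was 1.99 (standard error 0.191). For ACTR3-AS1 it was 1.71 (standard error 0.18), with levels in OVSAHO cells of -3.54 and -3.57 against -4.25 and -3.98, and ACTR3 had 0.76 (standard error 0.0736). RARA-AS1 had 1.43 (standard error 0.152) and RARA 0.37 (standard error 0.135). TGFB2-AS1 had 1.13 (standard error 0.132) and TGFB2 1.94 (standard error 0.124), since in KURAMOCHI cells TGFB2-AS1 had -0.79 and -0.64 against -0.88 and -1.06 and TGFB2 had 0.04 and -0.07 against -0.10 and -0.08. ZBTB11-AS1 was the other one above 0, at 1.12. The difference between drugs was thus larger in OVSAHO cells for the antisense RNAs beside SAPCD1, RARA and TGFB2.

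Among the 10 antisense RNAs below 0, NR2F1-AS1 had levels in OVSAHO cells of -0.69 and -0.67 with simvastatin and 0.17 and 0.03 with L778123, and in KURAMOCHI cells of -1.39 and -1.39 with simvastatin and -2.12 and -1.70 with L778123. The difference of effects was -1.30 (standard error 0.196, adjusted p = 0.00838), and that of NR2F1, an orphan nuclear receptor, was -1.60 (standard error 0.157). Both genes of this pair were lower with simvastatin in OVSAHO cells, at -0.78 and -0.80, and higher in KURAMOCHI cells, at 0.52 and 0.80, each time at an adjusted p under 0.05 from limma and under the fold threshold. The second probe of NR2F1-AS1 gave -1.35 in OVSAHO cells and 0.60 in KURAMOCHI cells. CYP1B1-AS1 had -1.25 (standard error 0.094) against 0.64 for CYP1B1, PDCD4-AS1 -1.23 (standard error 0.16) against -0.48 for PDCD4, and FOXP4-AS1 -1.20 (standard error 0.102) against 0.01 for FOXP4, a forkhead transcription factor. MORF4L2-AS1 had -1.14 (standard error 0.11) against -0.63 for MORF4L2, a subunit of a histone acetyltransferase complex. The remaining 5 were ST7-AS1, GNAS-AS1, PNISR-AS1, AQP5-AS1 and ZNF571-AS1, at -1.02 to -1.1. ZBTB11-AS1, ST7-AS1, PNISR-AS1 and, in the first comparison, OPA1-AS1 were named after their values were seen. The partner was also called, in the same direction, for SERTAD4-AS1, TGFB2-AS1, NR2F1-AS1 and AQP5-AS1, while 8.12% of all tested partner genes were called. The probe of SERTAD4 was detected only with L778123 in KURAMOCHI cells, and with normexp its difference of effects was 0.73, under the fold threshold. With normexp background correction 7 were called, 6 of them among the 16, and the other 10 were under the fold threshold. SERTAD4-AS1, RARA-AS1, TGFB2-AS1 and ZBTB11-AS1 were then at 0.96, 0.68, 0.90 and 0.87, and CYP1B1-AS1, PDCD4-AS1, FOXP4-AS1, MORF4L2-AS1, PNISR-AS1 and ZNF571-AS1 at -0.28, -0.99, -0.91, -0.91, -0.46 and -0.54, with CYP1B1-AS1 also missing the p threshold, at an adjusted p of 0.0603 from limma. With a median across the probes of each gene, CYP1B1-AS1 and PDCD4-AS1 were at -0.41 and -0.64. ZNF571-AS1 lost its call without OVSAHO Simvastatin replicate 1 (-0.79) and, with adjusted p values of 0.055 to 0.0728 from limma, without either OVSAHO L778123 array or any 1 KURAMOCHI array. PNISR-AS1 lost its call without OVSAHO L778123 replicate 2 (-0.96) and without KURAMOCHI Simvastatin replicate 2 (-0.99).

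Across pairs, the log2 differences of antisense RNA and partner were weakly related, and in OVSAHO cells more so where the starts lay close together. Pairs are not independent replicates, all values of a line come from the same 4 arrays, and the correlations are given as a description. Over the 314 pairs whose partner was detected on all arrays, Pearson's r was 0.161 in OVSAHO cells and 0.241 in KURAMOCHI cells. It was 0.393 in OVSAHO and 0.346 in KURAMOCHI over the 118 of these pairs with starts within 1000 bases, and -0.0369 and 0.141 over the 94 pairs with starts farther apart. The same sign was found in 59.3% of the close pairs and 43.6% of the far pairs in OVSAHO cells, and in 61% and 52.1% in KURAMOCHI cells. The median absolute difference between the 2 log2 differences of a pair was 0.373 for close and 0.589 for far pairs in OVSAHO cells, and 0.32 and 0.339 in KURAMOCHI cells. Over all partners with a probe, the values for close and far pairs were 0.409 and -0.0385 in OVSAHO cells, and 0.307 and 0.342 in KURAMOCHI cells, so that in KURAMOCHI the order depended on which partners were included. With 500 bases as the limit, the KURAMOCHI values over all partners were 0.297 and 0.35, and with 2000 bases, which raises the close pairs from 134 to 147, SERTAD4 at 1089 bases among them, they were 0.456 and 0.13. Without the 4 pairs in which both genes were called, the value for the remaining 130 close pairs in OVSAHO cells was 0.249. Close starts did not go with like values in every pair, as PRKAG2-AS1 and OGFR-AS1 show.

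**Figure D3:**
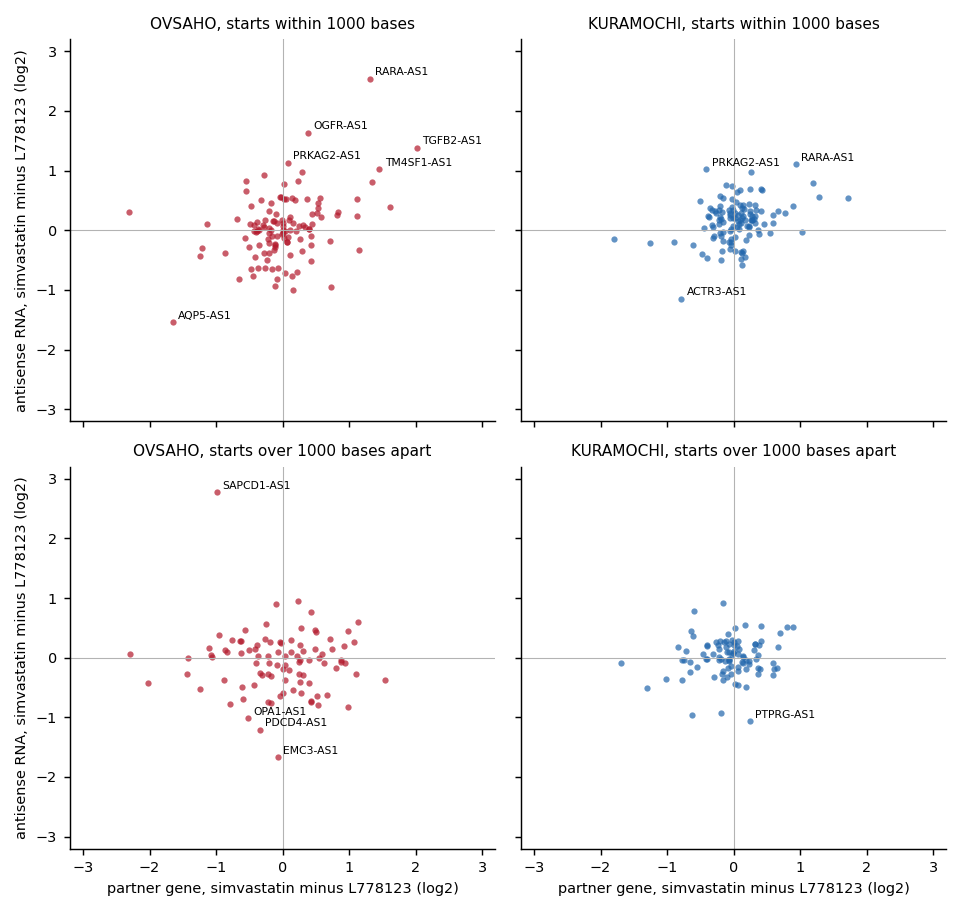
Log2 difference between simvastatin and L778123 of the antisense RNA (y) against that of its partner gene (x), for the 118 pairs with starts within 1000 bases (top) and the 94 pairs with starts farther apart (bottom), in OVSAHO (left, red) and KURAMOCHI (right, blue); names mark the called antisense RNAs, and all partners were detected on all arrays. RARA-AS1, TGFB2-AS1, TM4SF1-AS1 and AQP5-AS1 lie with their partners on the same side of 0 at the top left, and SAPCD1-AS1 lies opposite its partner at the bottom left.

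The largest differences were between the cell lines and not between the drugs. Averaged over both drugs, 116 antisense RNAs were called between OVSAHO and KURAMOCHI, 28.8%, against 28.5% of all genes detected on all arrays and 33.7% of all probes tested, with 71 higher and 45 lower in OVSAHO. Of the probes tested, 17.6% were higher and 16.1% lower, and of the genes detected on all arrays 2160 were higher and 1969 lower. HOXC-AS1 had levels of 3.03 to 3.95 on the OVSAHO arrays and -3.25 to -2.10 on the KURAMOCHI arrays, a log2 difference of 6.09 (standard error 0.0675). TMEM26-AS1 differed by 5.0 (standard error 0.0607), and TMEM26, well above background on the 4 OVSAHO arrays and 0 KURAMOCHI arrays, was at least 44.0-fold higher in OVSAHO. DLG5-AS1 differed by 3.37 and DLG5, a scaffold of cell junctions, by 2.75. MELTF-AS1 differed by 3.12 and MELTF, an iron-binding membrane protein, by 1.75. UNC5B-AS1 differed by 3.11 (standard error 0.0536) and UNC5B by 0.16 (standard error 0.051), so that this antisense RNA differed from its partner between the lines as well as between the drugs.

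In the other direction, CYP1B1-AS1 had levels of -4.17 to -2.78 on the OVSAHO arrays and 1.47 to 1.58 on the KURAMOCHI arrays, a log2 difference of -4.96 (standard error 0.047), and CYP1B1 one of -4.62 (standard error 0.0778). This pair thus differed together between the lines. VLDLR-AS1 differed by -4.15 and VLDLR, a receptor for lipoproteins, by -4.78, ZFPM2-AS1 by -3.94 and ZFPM2, a cofactor of GATA factors, by -5.08, and RASSF8-AS1 by -3.70 and RASSF8 by -2.57. DBH-AS1 differed by -4.95 (standard error 0.062), and the probe of DBH, an enzyme of noradrenaline synthesis, was well above background on 0 arrays. Both genes were called in the same direction in 33 pairs, 15 higher and 18 lower in OVSAHO. Partner genes, unlike the antisense RNAs, were tested when detected in only 1 group or more. For partners detected in only 1 line, TMEM26 and TENM2 among them, the direction was set by detection, here and in the counts below. With only probes on all 8 arrays, 101 partner genes were called between the lines in place of 126. In 71 pairs the antisense RNA was called and its partner was not, while 36.5% of all tested partner genes were called between the lines. The 71 include pairs whose partner was not tested, such as DBH, so that the count and this share cover different pairs. In 4 pairs the antisense RNA was higher and the partner lower, at GLIS2 (2.15 and -1.21), HDHD5 (1.06 and -1.1), PXN (2.18 and -1.11) and TENM2, whose probe was well above background on 0 OVSAHO arrays and at least 3.87-fold lower there. In 1 pair, MAP3K14, the antisense RNA was lower (-1.15) and the partner higher (1.17). Pearson's r over the 314 pairs with a partner on all arrays was 0.449. It was 0.549 for starts within 1000 bases and 0.356 beyond, and the order turned with 500 bases as the limit, to 0.411 and 0.507. A further 19 -AS1 genes were detected on all OVSAHO arrays and 0 KURAMOCHI arrays, MNX1-AS1, ZNF793-AS1 and FOXD2-AS1 among them, and 16 on all KURAMOCHI arrays and 0 OVSAHO arrays, SIX3-AS1 and WDR86-AS1 among them. These were 2% and 1.68% of the 952 -AS1 genes with a probe, against 2.16% and 1.45% of all 22428 genes with a probe. Of these names all but FOXD2-AS1, and the 5 pairs with opposite directions, were chosen after their values were seen.

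**Figure D4:**
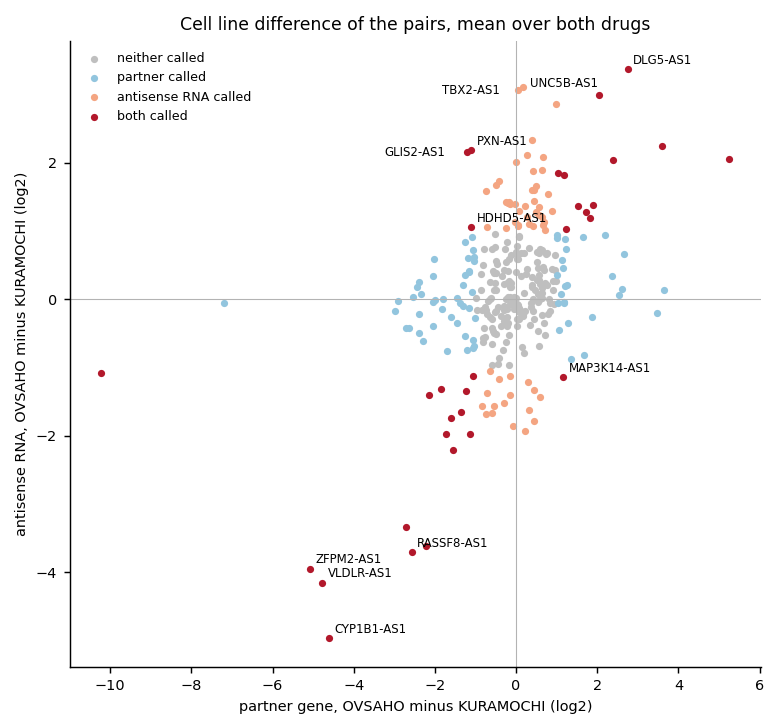
Log2 difference between OVSAHO and KURAMOCHI cells, averaged over both drugs, of the antisense RNA (y) against its partner gene (x) for the 314 pairs whose partner was detected on all arrays; colors tell which gene of the pair was called. CYP1B1-AS1, VLDLR-AS1 and ZFPM2-AS1 lie at the lower left with their partners, while UNC5B-AS1 and TBX2-AS1 lie high above partners near 0.

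The antisense RNAs were also grouped by short lists of what the partner gene does, and 247 of 403 fell in none of them. Of the 21 calls in OVSAHO cells, these 247 held 6 higher (SAPCD1-AS1, UNC5B-AS1, OGFR-AS1, RAD21-AS1, TM4SF1-AS1 and TEX26-AS1) and 6 lower (EMC3-AS1, CA3-AS1, MRTFA-AS1, OPA1-AS1, PDCD4-AS1 and USP2-AS1). Of the 12 calls in KURAMOCHI cells they held 2 higher (UNC5B-AS1 and SNAI3-AS1) and 2 lower (MRTFA-AS1 and SERTAD4-AS1). The lists are incomplete, since SNAI3 and MRTFA act in transcription and RAD21 in the cell cycle, so the counts below cover listed genes. Of the 52 antisense RNAs beside listed genes of transcription and chromatin, 1 was higher and 1 lower in OVSAHO cells, RARA-AS1 and ZNF571-AS1, and 4 were higher and 0 lower in KURAMOCHI cells, RARA-AS1, TBX2-AS1, KLF3-AS1 and HOXC-AS1. Of the 32 beside genes of metabolism and transport, 0 were higher and 3 lower in OVSAHO cells, AQP5-AS1, ATP2A1-AS1 and CYP1B1-AS1, and 0 were called in KURAMOCHI cells. Of the 27 beside genes listed under adhesion, cytoskeleton and matrix, TGFB2-AS1 was higher in OVSAHO and ACTR3-AS1 lower in KURAMOCHI. TGFB2 was placed in this list although it is a secreted growth factor. Of the 32 beside genes of signalling and trafficking, PRKAG2-AS1 was higher and GNAS-AS1 lower in OVSAHO, and in KURAMOCHI cells PRKAG2-AS1 and FZD10-AS1 were higher and PTPRG-AS1 lower. Of the 13 beside listed genes of the cell cycle and DNA, H1-10-AS1 was higher in OVSAHO and 0 were called in KURAMOCHI. These counts can be read against the shares of 9.61% and 3.86% called among all genes detected on all arrays. Among RNAs named in other ways, the 113 divergent transcripts with the suffix -DT had 2 higher and 4 lower in OVSAHO and 2 higher and 0 lower in KURAMOCHI, and the 16 intronic transcripts with the suffix -IT1 had 1 higher and 4 lower in OVSAHO and 0 higher and 2 lower in KURAMOCHI. The 21 with -AS2 to -AS9 had 1 lower in OVSAHO and 0 called in KURAMOCHI, and of the 5 with -AS and the 5 with -OT1, 0 were called in either line.

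From a list of antisense RNAs known in cancer research or beside genes of these cells, 16 were detected on all arrays and not called in either drug comparison. NR2F1-AS1 is described above. OIP5-AS1 differed by -0.27 (standard error 0.064) in OVSAHO cells and -0.04 in KURAMOCHI cells, FGD5-AS1 by 0.21 and 0.32, and MCM3AP-AS1 by -0.26 and 0.28. THAP9-AS1 differed by -0.63 in OVSAHO cells and 0.17 in KURAMOCHI cells, VIM-AS1, beside the intermediate filament vimentin, by 0.60 and -0.02, and LOXL1-AS1 by 0.21 and -0.51. NNT-AS1, KTN1-AS1, MAPKAPK5-AS1, PSMA3-AS1, ZEB1-AS1, IDI2-AS1, ACTA2-AS1 and PAX8-AS1 differed by -0.17 to 0.27 in both lines. IDI2-AS1, beside an isopentenyl diphosphate isomerase gene of the pathway that statins block, differed by -0.03 (standard error 0.18) in OVSAHO and 0.10 in KURAMOCHI. FOXD2-AS1, TMPO-AS1, PCNA-AS1, TP73-AS1, AFAP1-AS1, GATA6-AS1 and ITGA6-AS1 were not detected on all arrays.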

How the data were processed

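Total RNA of 2 ovarian cancer cell lines, each cultured with 1 of 2 drugs, was labelled with Cy3 and hybridized to Agilent single-color arrays, 2 per group. The deposited scanner files hold, per the file headers, spot intensity values from Agilent Feature Extraction 11.5.1.1, background-subtracted and spatially detrended by the software. A second table by the authors holds quantile-normalized intensity values on a linear scale, and served as an alternative. The log2 processed intensity minus the 75th percentile of its array was used here. Control spots and outlier spots were left out. Of 49766 identifiers, 24768 were named through RefSeq tables of GRCh38.p14, and 0 columns of single samples were left unused.

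Groups were compared with limma 3.58.1 in R 4.3.3, in 1 fit of the 4 groups, over the 33753 probes that 1 group or more had well above background on its 2 arrays, with Benjamini-Hochberg adjustment over all of them. A call needed an adjusted p under 0.05 and a 2-fold difference. The fit was tested on simulated data. The number of arrays, 2 per group, limits the precision. Named were the 10 largest calls each way in each drug comparison, the 5 largest each way between the lines and in the difference of drug effects, pairs called in both genes, 3 antisense RNAs on each side of the detection rule, and a list of known antisense RNAs, not all of which are reported here. The antisense RNAs, lists and tests were chosen with earlier results of these data known. The alternatives were other background corrections and scalings, filters, fold thresholds, probe summaries, the methods' analysis of variance with Tukey's test, a replicate block and leaving out each array. Promoter windows came from RefSeq, and matplotlib 3.10.9 under Python 3.11.15 drew the figures.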

Additional observations from a re-analysis of the deposited data

Results flagged for a closer look

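The drug effect, simvastatin minus L778123, differed between the cell lines by the test of that difference in limma for 16 antisense RNAs, and the 5 largest each way are given here as the log2 effect in OVSAHO minus that in KURAMOCHI. SERTAD4-AS1 was at 2.03, SAPCD1-AS1 at 1.99, ACTR3-AS1 at 1.71, RARA-AS1 at 1.43 and TGFB2-AS1 at 1.13. NR2F1-AS1 was at -1.30, CYP1B1-AS1 at -1.25 with probes that disagree, PDCD4-AS1 at -1.23, FOXP4-AS1 at -1.20 and MORF4L2-AS1 at -1.14. With 2 arrays in a group, single arrays that stand apart could not be looked for.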

How the results depend on the processing

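All named values that were called kept their direction under all alternatives run. Of their values under 18 alternatives, 1139 stayed called and 68 did not. Several alternatives left the log2 difference of a drug comparison in 1 line unchanged by construction, so that only its p-value could move. They were the filters, the replicate block, the analysis of variance, fitting each line alone and leaving out an array of the other line. The count of 1139 therefore overstates how stable the calls were. With normexp background correction 13 antisense RNAs were called in OVSAHO, 2 in KURAMOCHI and 7 for the difference of drug effects, and 11 and 14 partner genes in KURAMOCHI and for that difference. Its offset lowers the fold changes of dim probes by construction. It also starts from the median spot signal and not from the processed intensity, and the part of each in the lost calls was not tested. With a fold of at least 1.5 the antisense RNAs called were 84 in OVSAHO, 38 in KURAMOCHI, 59 for the difference of effects and 188 between lines, and the partner genes 96, 60, 70 and 194. With no fold threshold they were 188, 125, 94 and 278, and 210, 129, 110 and 303. These antisense RNAs were 46.7%, 31%, 23.3% and 69% of 403, against 57.1%, 37.3%, 28.4% and 82.7% of the genes detected on all arrays. For the other alternatives, normexp and the 1.5-fold threshold among them, shares over all genes are not given here. Those counts therefore do not tell whether the antisense RNAs differ from other genes. Leaving out 1 array gave 19 to 26, 10 to 12, 16 to 22 and 116 to 119 antisense RNAs, and 43 to 52, 17 to 23, 24 to 31 and 122 to 127 partner genes. With the replicate block 21, 12, 16 and 116 antisense RNAs were called. Replicate numbers did not pair the arrays, with correlations of deviations of 0.000848 to 0.0555. In that fit ATP2A1 in OVSAHO passed the threshold, with an adjusted p of 0.0447 from limma.

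Only values that were not called changed sign, and the cause was not tested. With normexp, GNAS was at -0.0608, ATP2A1 at 0.0397 and USP2 at 0.0628 in OVSAHO, PAX8-AS1 at 0.0345 in KURAMOCHI, and the difference of drug effects of FOXP4 at -0.000524. GNAS was at -0.115 with quantile normalization and -0.118 in the authors' table, and the FOXP4 difference at -0.0352 and -0.0389. With a median across probes KTN1-AS1 was at -0.38 in OVSAHO and -0.22 in KURAMOCHI, PSMA3-AS1 at -0.11 in OVSAHO, and the FOXP4 difference at -0.37. With 1 array left out, the ranges in OVSAHO were -0.15 to 0.0546 for MAPKAPK5-AS1, -0.0462 to 0.14 for KTN1-AS1, -0.24 to 0.19 for IDI2-AS1, -0.12 to 0.45 for ACTA2-AS1, -0.11 to 0.42 for PAX8-AS1, -0.0132 to 0.17 for PRKAG2, -0.0386 to 0.076 for GNAS and -0.0807 to 0.39 for ZNF571. In KURAMOCHI they were -0.0661 to 0.0132 for NNT-AS1, -0.00305 to 0.16 for KTN1-AS1, -0.0674 to 0.0213 for VIM-AS1, -0.0744 to 0.28 for IDI2-AS1, -0.13 to 0.28 for ACTA2-AS1 and -0.42 to 0.069 for PAX8-AS1, and for the FOXP4 difference -0.0964 to 0.12. Naming genes from a name column of the files was planned and not run, since the files used here have none, and normexp used the median spot signal. Dim signal limits the antisense RNAs, whose median level was -1.13.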
